A study of Rattus norvegicus with 32 samples.

Results

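The 10 genes described here encode the NF-kappaB transcription factor subunits (Nfkb1, Nfkb2, Rela, Relb, Rel) and proteins that hold them in check or steer them (Nfkbia, Nfkbie, Nfkbiz, Bcl3, Tnfaip3). They were found by their symbol in the annotation of the scanner files, which gave 16 of the 45598 probes and 10 of the 27961 named genes on the array. The hearts came from young adult Wistar rats of both sexes, and the left ventricle was collected 20 h after surgery. The sham group was sham-operated. The CLP group underwent cecal ligation and puncture, which seeds the abdomen with gut bacteria and leads to sepsis, and received saline. The CLP plus landiolol group had the same injury and was infused from 1 h later with landiolol, a short-acting beta blocker. Each sex had 5 sham, 5 CLP and 6 CLP plus landiolol arrays, 1 array to a heart, 32 in all. Per the study's methods, the hearts had been imaged in vivo and perfused in isolation before freezing, in all groups alike, the rats were given buprenorphine, and the infusions held no antibiotic. RNA of low integrity or amount had been discarded before the arrays were run. A whole left ventricle holds many cell types, so fewer cells of a type and less RNA per cell cannot be told apart in these values.

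NF-kappaB acts as dimers of its subunits. In resting cells the dimers are kept in the cytoplasm by inhibitor proteins, of which the products of Nfkbia and Nfkbie are members. Signals from Toll-like, interleukin-1 and TNF receptors activate the IKK kinase complex, which marks the inhibitors for degradation and frees the dimers to enter the nucleus. The pathway is therefore controlled mainly at the level of protein, and transcript levels do not measure its activity. Many of its own genes are among its targets in textbook accounts, the inhibitors Nfkbia and Tnfaip3 foremost, which closes a feedback loop.

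The promoters of the members are shown because this feedback is read from sites near the start of transcription. RefSeq windows (build GRCr8) from 250 bases before to 50 bases after the annotated start were held for 9 of the 10 genes, all but Relb. The kappaB consensus of 10 bases was searched on both strands. It matched in 8 of the 9 windows, all but that of Rela, against 4.18% of the 33469 promoters searched. The 3 matches in Rel overlapped each other. A match is a stretch of letters and not a measured binding site. The capitals below mark the matches, positions count from the annotated start, and each line runs 5′ to 3′ on the strand of the gene.
Nfkb1, first base of the match at 4, chr2:226805440-226805469, minus strand: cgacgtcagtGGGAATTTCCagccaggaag
Nfkb2, match at -20, chr1:255108334-255108373, plus strand: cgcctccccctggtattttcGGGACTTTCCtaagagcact
Rel, 3 overlapping matches from -82, chr14:101921990-101922040, minus strand: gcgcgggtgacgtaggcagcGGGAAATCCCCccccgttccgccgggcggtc
Nfkbia, match at -31, chr6:78597074-78597123, minus strand: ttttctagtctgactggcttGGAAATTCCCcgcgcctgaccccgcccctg
Nfkbie, match at -164, chr9:22948007-22948056, minus strand: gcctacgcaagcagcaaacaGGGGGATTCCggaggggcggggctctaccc
Nfkbiz, match at -13, chr11:58251688-58251720, plus strand: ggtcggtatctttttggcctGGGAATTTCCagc
Bcl3, match at -38, chr1:88613564-88613613, minus strand: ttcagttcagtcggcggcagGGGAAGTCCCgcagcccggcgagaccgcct
Tnfaip3, matches at -67 and -55, chr1:15544005-15544066, minus strand: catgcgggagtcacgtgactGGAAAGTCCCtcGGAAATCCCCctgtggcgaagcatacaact

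Tnfaip3 had a further match at -170. Of the 16 probes, 4 target Relb, 2 each target Nfkb1, Bcl3 and Tnfaip3, and the other genes have 1 each. Each gene was counted by its probe with the highest mean signal. The second Nfkb1 probe lies across a gap of the genome and so reads a spliced transcript. For that reason both are shown here with the coordinates the files give (build rn4), beside the probes of Nfkb2 and Rel. The probe of Nfkb2, the second of Bcl3 and the fourth of Relb also lie across a gap.
Nfkb1, counted probe, chr2:233091704-233091763, minus strand: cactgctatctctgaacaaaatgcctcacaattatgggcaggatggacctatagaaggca
Nfkb1, second probe, chr2:233100929-233107175, minus strand: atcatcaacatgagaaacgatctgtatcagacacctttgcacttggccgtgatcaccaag
Nfkb2, counted probe, chr1:251526647-251526839, plus strand: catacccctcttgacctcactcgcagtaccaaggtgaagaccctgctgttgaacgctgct
Rel, counted probe, chr14:104645730-104645789, minus strand: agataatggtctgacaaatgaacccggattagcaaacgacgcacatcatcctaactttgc

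All 10 counted probes were well above background on every one of the 32 arrays, so every member was tested in both sexes. The fourth Relb probe was the only member probe that was dim. It was well above background on 5, 5 and 3 of the sham, CLP and CLP plus landiolol arrays of the males, and on 4, 3 and 3 of those of the females. Between 50.3% and 67.0% of all probes were well above background per array, and the median correlation of an array with the others of its group lay between 0.949 and 0.986. Sex was confounded with the slide, since the 16 arrays of a sex filled their own 2 slides, and each slide held all 3 groups. In the females all 5 sham arrays lay in row 1 of a slide and all 6 CLP plus landiolol arrays in row 2, while the CLP arrays were split 3 to 2. The values below are quantile-normalised log2 signals. Levels of different probes are not compared with each other.

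In the males, no NF-kappaB subunit or inhibitor passed the test between the CLP and the sham group at a false discovery rate (FDR) of 1%. Across all 16471 named genes tested, 4.18% were higher and 4.71% lower at that level. The limma estimate was higher in CLP for 8 of the 10 members and lower for 2, with a median log2 difference of 0.12 against -0.01 over all named genes. Unadjusted, 1 member had p under 0.05, against 30.3% of all genes. No member had groups that did not overlap, against 13.5% of all genes. In the females, again 0 of the 10 members passed, against 2.14% of 16210 genes higher and 2.07% lower. There the estimate was higher for 2 members and lower for 8, with a median of -0.35 against -0.02 over all genes. None had an unadjusted p under 0.05, against 24.7% of genes, and none had groups that did not overlap, against 9.38%. A SAM test with 100 drawn permutations, run on the values used here, also called 0 members in either sex. The count of members with an unadjusted p under 0.05 was 2 in the males with the slide as a term or without sham replicate 3, sham replicate 4 or CLP replicate 5. In the females it was 1 with the row on the slide as a term and 2 without sham replicate 1. Between the 2 slides of a sex, only 2 of the 10 members had the same sign in the males and 8 in the females. With 1 array left out, 2 to 6 members were lower in CLP in the males and 7 to 9 in the females.

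**Figure D1:**
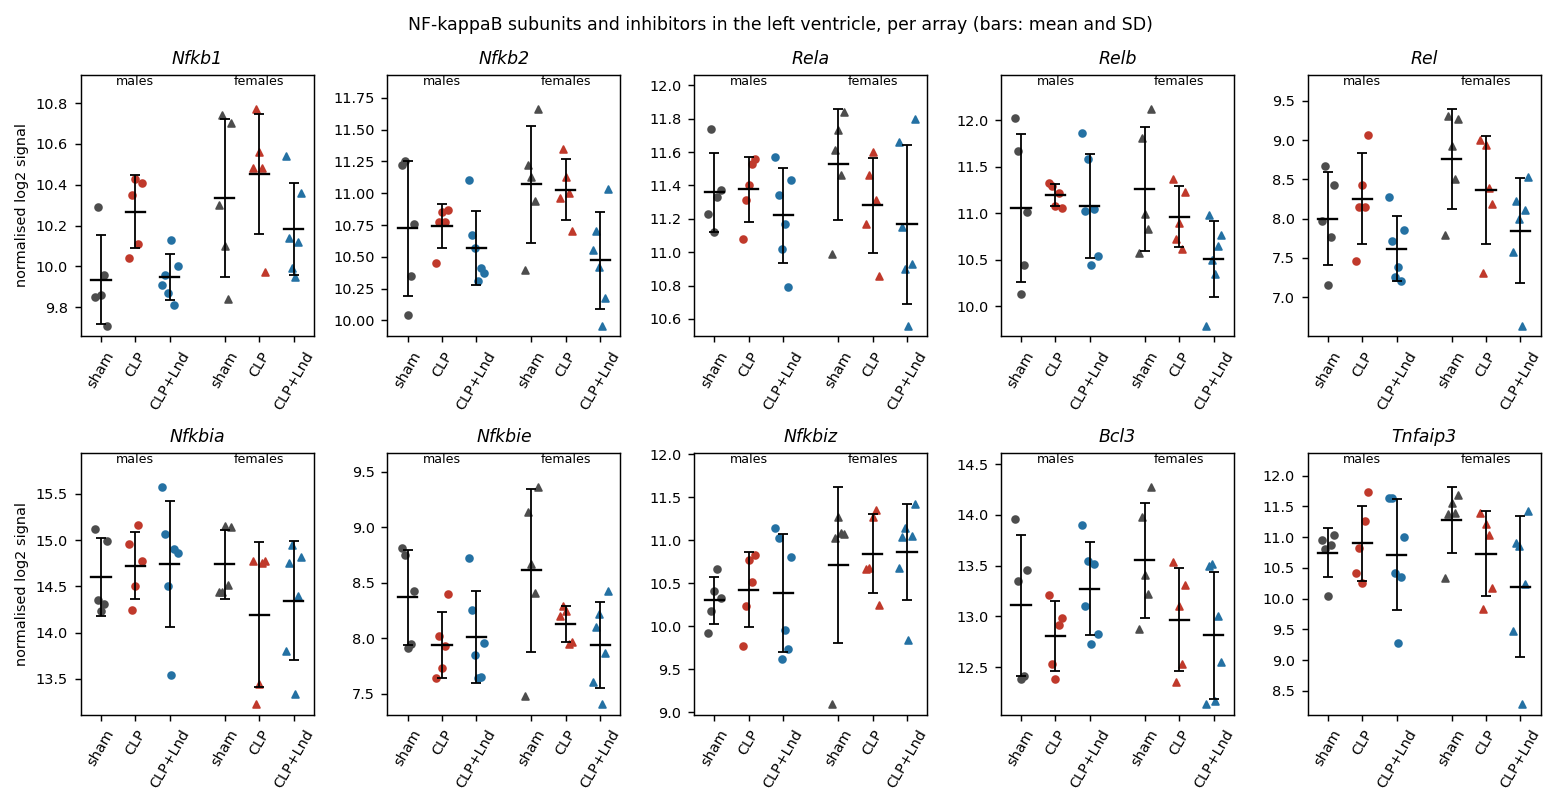
Normalised log2 signal (vertical axis, a separate scale in each panel) of the counted probe of the 10 genes on the 32 arrays, by group (horizontal axis). Each point is 1 array, circles males and triangles females, with the mean and SD in black. In every panel the sham, CLP and CLP plus landiolol arrays of a sex overlap.

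Nfkb1 encodes p105, the precursor that is processed to the p50 subunit. In the male sham group its log2 values were 9.85, 10.29, 9.86, 9.96 and 9.71, and in the male CLP group 10.04, 10.35, 10.43, 10.11 and 10.41. All CLP arrays were above 4 of the 5 sham arrays, and the highest sham array reached into the CLP range. The log2 difference was 0.33 ± 0.12 (SE), or 1.26-fold, with an adjusted p of 0.077 in limma, the lowest of the 10 members in this comparison, and 0.093 in SAM. It was 0.20 on the one male slide and 0.42 on the other. The second probe gave a log2 difference of 0.42 ± 0.22 with an adjusted p of 0.24. That probe differed by 0.01 on the first male slide and by 0.76 on the second. In the females the counted probe differed by 0.11 ± 0.19 (adjusted p = 0.79) and the second by 0.43 ± 0.36 (adjusted p = 0.53).

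Rela encodes p65, which carries the transactivation domain of the classical dimer. Its mean log2 level in the males was 11.36 ± 0.23 (SD, n = 5) in sham and 11.38 ± 0.19 (n = 5) in CLP, a difference of 0.02 with a 95% confidence interval from -0.32 to 0.36. In the females it was 11.53 ± 0.33 in sham and 11.28 ± 0.29 in CLP, a difference of -0.25 with an interval from -0.75 to 0.25. Nfkb2 encodes p100, the precursor of p52 in the non-canonical pathway. Its differences were 0.01 in the males (interval -0.45 to 0.48) and -0.04 in the females (interval -0.52 to 0.45). None of these 4 intervals reached a doubling or a halving of the level.

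Relb, the partner of p52, varied widely among the sham males, whose values were 12.03, 11.67, 10.13, 10.44 and 11.01, while the male CLP arrays lay between 11.06 and 11.33. The first 2 of those sham values came from the first male slide and the other 3 from the second. The log2 difference was 0.14 ± 0.34 in the males and -0.30 ± 0.29 in the females. On the first male slide it was -0.62 and on the second 0.61. In the females the other Relb probes differed by -0.22, -0.38 and -0.53, the last from the dim probe. Rel encodes c-Rel, the subunit best known from lymphoid cells. Its difference was 0.25 ± 0.31 in the males and -0.39 ± 0.39 in the females.

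Of the inhibitors, Nfkbia encodes IkappaB-alpha, the inhibitor that is degraded and resynthesised fastest. In the females the sham values were 14.44, 14.44, 15.15, 14.52 and 15.14, and the CLP values 14.78, 13.23, 13.45, 14.75 and 14.77. The CLP arrays had 3 values within the sham range and 2 values below it. Their log2 difference was -0.54 ± 0.37 with an adjusted p of 0.42. In the males it was 0.12 ± 0.31, and the CLP range of 14.24 to 15.16 nearly matched the sham range of 14.23 to 15.12. Nfkbie, which encodes IkappaB-epsilon, was the member with the lowest estimate in the males, at -0.43 ± 0.23 (adjusted p = 0.25), and stood at -0.48 ± 0.29 (adjusted p = 0.35) in the females. The male sham values of 8.81, 8.75, 7.91, 7.95 and 8.43 overlapped the CLP values of 7.64, 8.02, 7.73, 7.93 and 8.40. On the first male slide the difference of Nfkbie was -0.98 and on the second 0.07.

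Bcl3 and Nfkbiz encode nuclear members of the IkappaB family that act with NF-kappaB dimers on the DNA. Bcl3 had the lowest estimate of the members in the female comparison, -0.59 ± 0.34 (adjusted p = 0.33), with -0.60 ± 0.32 from its second probe. In the males it was -0.31 ± 0.31, at -0.95 on the first slide and 0.20 on the second. Nfkbiz differed by 0.12 ± 0.30 in the males and 0.14 ± 0.39 in the females. Tnfaip3 encodes A20, the ubiquitin-editing enzyme that shuts the pathway off upstream of IKK. Its difference was 0.15 ± 0.40 in the males (-0.39 on the first slide, 0.84 on the second) and -0.54 ± 0.50 in the females. Its intervals were the widest of all, from 0.612-fold to 2.01-fold in the males and from 0.331-fold to 1.43-fold in the females, so a doubling in the males or a halving in the females lay within the error.

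Landiolol was compared with untreated CLP at an FDR of 5%. Again 0 of the 10 members passed in either sex. In the males 1.03% of all genes were higher and 0.747% lower with landiolol, and in the females 0.0617% (10 genes) and 0.037% (6 genes). The share of higher calls in the females, 62.5% of 16 genes, was 40.0% of 5 genes with 75th percentile scaling. Unadjusted, 1 member in the males and 1 in the females had p under 0.05, against 15.9% and 9.88% of all genes. The count in the males was 2 without CLP replicate 1 or CLP plus landiolol replicate 1, and also with 75th percentile scaling, normexp, only the groups compared, an intensity trend, array weights or the deposited table. In the females it was 0 with the row as a term or without CLP plus landiolol replicate 4, and 2 without CLP replicate 5. Groups did not overlap for 2.58% of genes in the males and 1.32% in the females, and for 0 members. The estimate was lower with landiolol for 7 members in the males and 8 in the females, with medians of -0.13 and -0.23 against 0.02 and 0.03 over all genes.

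In the males the member in question was Nfkb1. Its 6 landiolol values ran from 9.81 over a median of 9.94 to 10.13, against 10.04 to 10.43 in CLP, and only 2 CLP arrays lay within the landiolol range. The log2 difference was -0.32 ± 0.12, or 0.802-fold, with an adjusted p of 0.21. It was -0.36 on the one slide and -0.28 on the other. The second probe gave -0.57 ± 0.21 (adjusted p = 0.22). The mean of the landiolol group, 9.95, was close to the sham mean of 9.94, with a difference of 0.01 ± 0.12 between them. These comparisons share the CLP or the sham arrays, so their values are given side by side and not as separate evidence. Rel followed in the males with -0.63 ± 0.30 (adjusted p = 0.34), and Bcl3 had the highest estimate, 0.47 ± 0.29 (adjusted p = 0.48), while its second probe gave 0.15 ± 0.29.

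In the females the member was Nfkb2. Its CLP values were 10.96, 11.35, 11.13, 11 and 10.70, and its landiolol values ran from 9.96 over a median of 10.48 to 11.03. The log2 difference was -0.56 ± 0.22, or 0.679-fold, with an adjusted p of 0.42. With the row on the slide as a term it was -0.38. Of the other subunits, Nfkb1 differed by -0.27 ± 0.19, Relb by -0.46 ± 0.28, Rel by -0.52 ± 0.37 and Rela by -0.11 ± 0.22 in the females, and of the inhibitors Tnfaip3 by -0.54 ± 0.48. The same sign was seen on both slides for 3 members in the males and 6 in the females. Nfkbia stood at 0.15 ± 0.35 and turned to -0.42 with the row term. The difference of Nfkbiz was -0.04 ± 0.29 in the males and 0.02 ± 0.37 in the females.

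**Figure D2:**
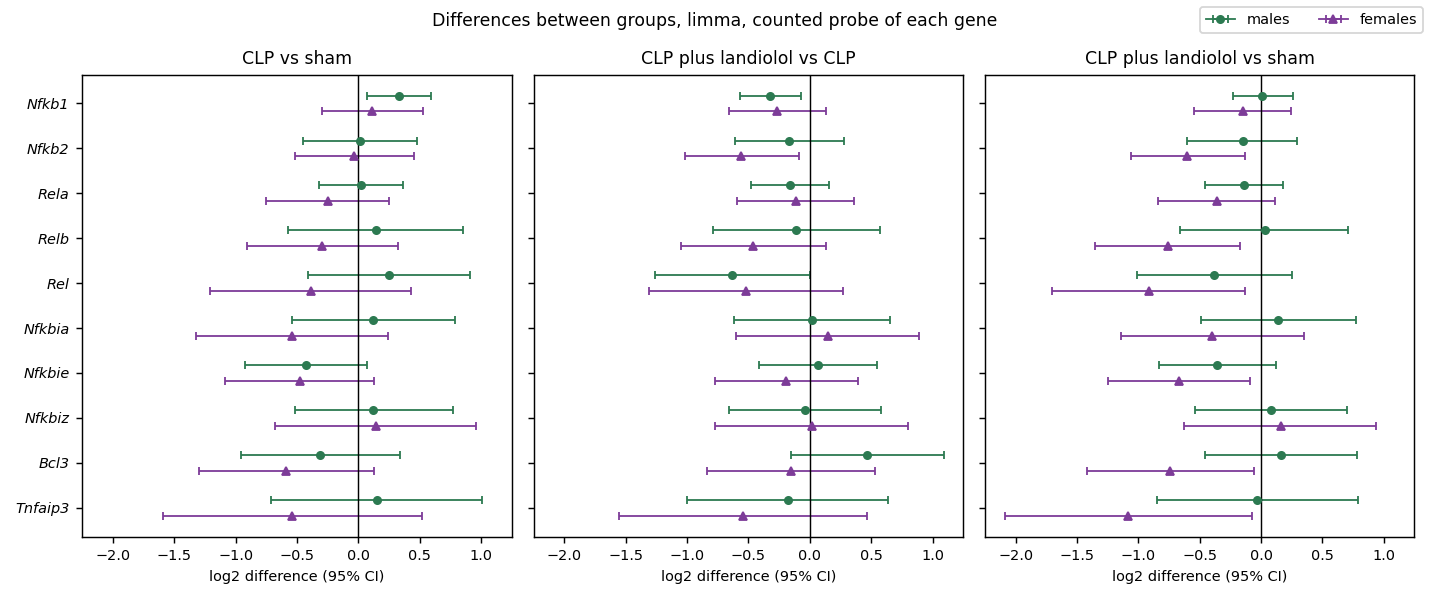
Log2 difference between groups (horizontal axis) with its 95% confidence interval for the counted probe of each gene (vertical axis), in the 3 comparisons, circles males and triangles females. In the females treated with landiolol, 6 intervals lay below 0 against sham, but no member passed the FDR. The first panel shares its CLP arrays with the second and its sham arrays with the third.

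Against sham, the members of the landiolol group are described within each sex, and a difference between the sexes was not tested here. In the males 5 were higher and 5 lower, 4 had the same sign on both slides, the median was -0.01, none had an unadjusted p under 0.05 (1 without CLP plus landiolol replicate 1) and none passed. In all genes 2.75% were higher and 2.08% lower at an FDR of 1%, 25.4% had an unadjusted p under 0.05 and 8.82% had groups that did not overlap. In the females 9 of the 10 members were lower, with a median log2 difference of -0.63 against -0.01 over all genes, and 6 members had an unadjusted p under 0.05, against 28.6% of genes. None passed an FDR of 1%, against 3.41% of genes higher and 2.59% lower, and none had groups that did not overlap, against 10.9%. The 6 were Nfkb2 at -0.60 ± 0.22, Relb at -0.76 ± 0.28, Rel at -0.91 ± 0.37, Nfkbie at -0.67 ± 0.28, Bcl3 at -0.74 ± 0.32 and Tnfaip3 at -1.08 ± 0.48. Their adjusted p-values lay between 0.087 and 0.16. All 6 were read from the same arrays and varied together from heart to heart, so they are not 6 separate results.

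Single arrays carried much of this count. It was 0 without female sham replicate 5, 2 without female sham replicate 2 or CLP plus landiolol replicate 4, 3 without CLP plus landiolol replicate 1, and 7 without female sham replicate 1. Tnfaip3 shows the spread. Its sham values were 10.34, 11.38, 11.56, 11.39 and 11.69, and its landiolol values ran from 8.29 over a median of 10.54 to 11.42. The landiolol arrays at 10.85, 10.90 and 11.42 lay inside the sham range. Rel had sham values of 7.79, 9.31, 8.93, 8.50 and 9.27 against 6.64 over a median of 8.05 to 8.53. For Nfkb1, Rela and Nfkbia the differences were -0.15 ± 0.19, -0.36 ± 0.22 and -0.40 ± 0.35. On each female slide taken alone, 9 of 10 members kept their sign, all but Nfkbiz. Both slides had sham in row 1 and landiolol in row 2, so their agreement cannot separate the row from the treatment.

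In the females this comparison also set row 1 of the slides against row 2, which the design does not separate except through the CLP arrays. With the row as a term, 8 of the 10 members remained lower and 1 had an unadjusted p under 0.05. Rela moved from -0.36 to -0.04, Nfkb2 from -0.60 to -0.30, Nfkb1 from -0.15 to 0.22 and Nfkbia from -0.40 to -1.34. Within the female CLP group, 9 members were lower in row 2 than in row 1, with a median of -0.17, and Nfkbia was higher by 0.94. Within the male groups the direction was not the same. In row 2, 1 member was lower in sham, 3 in CLP and 8 in CLP plus landiolol. The part of the row in the female result cannot be told apart from that of the treatment.

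A difference between the sexes was tested directly for CLP vs sham and for landiolol vs CLP, and not for landiolol vs sham. The female minus male difference of CLP vs sham passed an FDR of 5% for 0 of 10 members and for 0 of 15870 genes (0%), with p under 0.05 unadjusted for 0 members and 3.66% of genes. For landiolol vs CLP these were 0 members and 0 genes, with 0 members and 4.76% of genes unadjusted. The estimates were lower in the females for 9 of 10 members in the response to CLP, by a median of -0.27 against -0.01 over all genes. The lowest were Tnfaip3 at -0.69 ± 0.67, Nfkbia at -0.66 ± 0.49 and Rel at -0.64 ± 0.51. The interval of Tnfaip3 ran from -2.06 to 0.67, so a halving lay within the error.

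The pooled SD within the groups was 0.69 in the males and 0.86 in the females for Tnfaip3, above 91.1% and 94.5% of named genes. Relb, Rel, Nfkbia, Nfkbiz and Bcl3 had SDs of 0.51 to 0.57 in the males and 0.49 to 0.66 in the females, against medians of 0.32 and 0.36 over all genes. Nfkb1 and Rela were quieter, at 0.17 and 0.24 in the males and 0.30 and 0.38 in the females.

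The members also varied together from heart to heart. After the mean of each group was subtracted, the Pearson correlation over the 32 arrays was positive for 43 of the 45 pairs, with a median of 0.53 and a range from -0.33 to 0.86. The median was 0.54 in the males and 0.59 in the females. Counts of members by sign or by unadjusted p are therefore not counts of independent results. Each member's median correlation with all named genes lay between -0.05 and 0.03, and with the other members between 0.21, for Nfkb1, and 0.64, for Nfkbie. The closest pairs were Nfkb2 with Nfkbie (r = 0.86, Spearman's rho = 0.84), Relb with Bcl3 (r = 0.85, rho = 0.87) and Rel with Tnfaip3 (r = 0.80, rho = 0.76). The lowest was Nfkb1 with Nfkbia (r = -0.33, rho = -0.37). These values describe arrays that share slides and one normalisation, and no test was made of them. Probes of 1 gene correlated with r = 0.78 for Tnfaip3, 0.66 for Nfkb1 and 0.48 for Bcl3, and from 0.09 to 0.71 for the 6 pairs of Relb probes, and only the counted probe of Relb enters the pairs above.

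**Figure D3:**
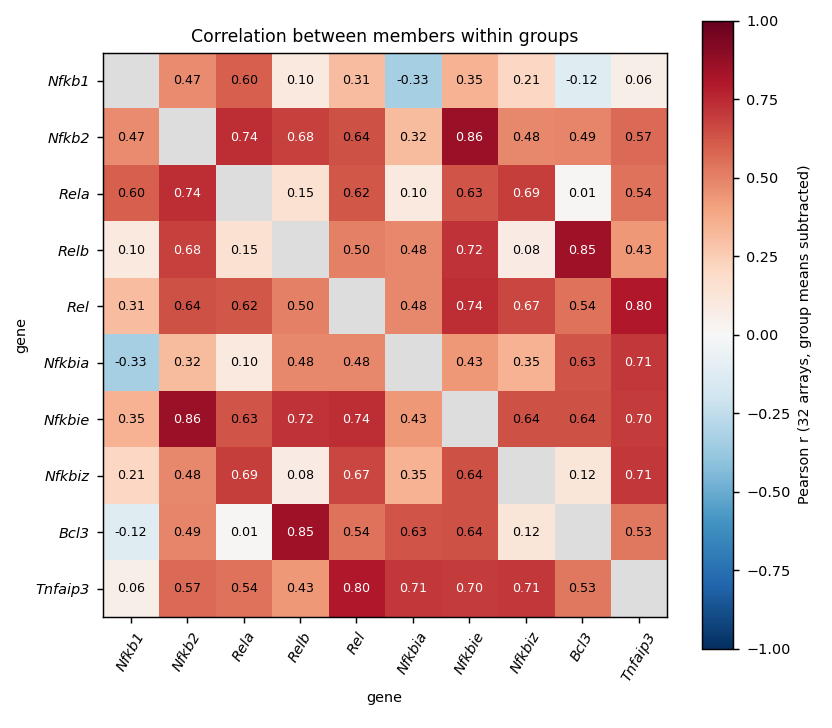
Pearson correlation between the counted probes of the 10 genes (both axes) over 32 arrays after the mean of each of the 6 groups was subtracted. Red is positive and blue negative, with r printed in each cell. Nfkb2 with Nfkbie and Relb with Bcl3 are the highest, and Nfkb1 with Nfkbia is the lowest.

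Across the whole array, the gene most like each member was taken as the one of 15012 candidates with the highest Pearson correlation over the 32 arrays after the mean of each sex was subtracted. For Bcl3 it was Birc3 (r = 0.90, rho = 0.91), which encodes the ubiquitin ligase cIAP2. For Tnfaip3 it was the neutrophil chemokine Cxcl1 (r = 0.90, rho = 0.88), and for Nfkbiz the early response gene Ier3 (r = 0.84, rho = 0.76). For Nfkb1 it was Tnip1 (r = 0.83, rho = 0.82), whose product binds A20. For Nfkb2 and Rela it was Nfkbib, which encodes IkappaB-beta (r = 0.78 and 0.81, rho = 0.81 and 0.82). Relb was closest to the chemokine Cxcl16 (r = 0.86), Nfkbie to Ralgds (r = 0.88), Rel to LOC103691716 (r = 0.86) and Nfkbia to Rtp3 (r = 0.80). Each r is the highest of many and is a description.

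The rest of the pathway was taken from 4 lists. Their called shares are to be read against those over all genes between CLP and sham, 4.18% higher and 4.71% lower in the males and 2.14% and 2.07% in the females. With landiolol against sham these were 2.75% and 2.08% in the males and 3.41% and 2.59% in the females. Among the IKK complex and its upstream kinases, 0 genes passed in any comparison, of 13 tested in the males and 14 in the females. Of the adaptors and ubiquitin ligases, 1 of 18 passed between CLP and sham in the males and 1 of 17 in the females (5.56% and 5.88%). In the males it was Myd88, the adaptor of Toll-like and interleukin-1 receptors, higher in CLP by 0.87 ± 0.20 (adjusted p = 0.0065). Myd88 was higher in CLP in the females too, without passing, with means of 12.44 ± 0.29 (SD) in sham and 13.18 ± 0.38 in CLP. The gene that passed in the females was Traf6, the ligase downstream of Myd88, lower by a log2 difference of -0.84 ± 0.17 (adjusted p = 0.0059). In the males the means of Traf6 were 7.16 ± 0.19 (SD) in sham and 7.44 ± 0.22 in CLP. The list medians were -0.08 and -0.17.

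Of the other inhibitors, 3 of 17 rose in CLP against sham in the males and 2 of 17 in the females (17.6% and 11.8%), and none fell. With landiolol against sham, 4 and 3 of 17 rose (23.5% and 17.6%). The medians of the list lay between 0.08 and 0.15 in these 4 comparisons. The largest rise in CLP was in Pdlim2, a nuclear protein that promotes the destruction of p65. Its log2 level was 9.56 ± 0.20 (SD, n = 5) in sham and 10.84 ± 0.47 (n = 5) in CLP males, a difference of 1.28 ± 0.20 (SE, adjusted p = 5e-04). In the females it was 9.02 ± 0.14 and 10.92 ± 0.31, a difference of 1.90 ± 0.28 (adjusted p = 0.00057), and 2.04 ± 0.26 with landiolol (adjusted p = 0.00019). All sham values of Pdlim2 lay below all CLP values in both sexes. Irak3, an inactive kinase that damps Toll-like receptor signals, was the largest rise with landiolol in the males, at 1.47 ± 0.24 (adjusted p = 0.0011).

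Of the textbook target genes of NF-kappaB, 29 of 32 could be tested in the males and 31 in the females. Between CLP and sham 1 rose and 3 fell in the males, and 2 rose and 3 fell in the females (13.8% and 16.1% called). The list medians were -0.23 and -0.17. Csf3, the granulocyte growth factor G-CSF, rose most, by 3.83 ± 0.55 on the log2 scale in the males (14.2-fold, adjusted p = 0.00028) and 2.83 ± 0.60 in the females (7.09-fold, adjusted p = 0.0079). The largest fall was in Cd83, a surface protein of activated antigen-presenting cells, in the males, at -2.78 ± 0.25 (adjusted p = 5.1e-06). In the females it was in Cxcl10, an interferon-induced chemokine, at -5.08 ± 0.44 (adjusted p = 1.7e-05). The female sham arrays held 12.70 to 15.31 of Cxcl10 and the CLP arrays 8.47 to 9.93. Against sham with landiolol, 1 rose and 1 fell in the males and 1 rose and 3 fell in the females (6.90% and 12.9%), led by Csf3 at 3.53 and Cd83 at -2.85 in the males and by Bcl2l1, an inhibitor of apoptosis, at 1.23 and Cxcl10 at -5.23 in the females. No gene of the 4 lists passed between landiolol and CLP or in the tests of the difference between the sexes.

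**Figure D4:**
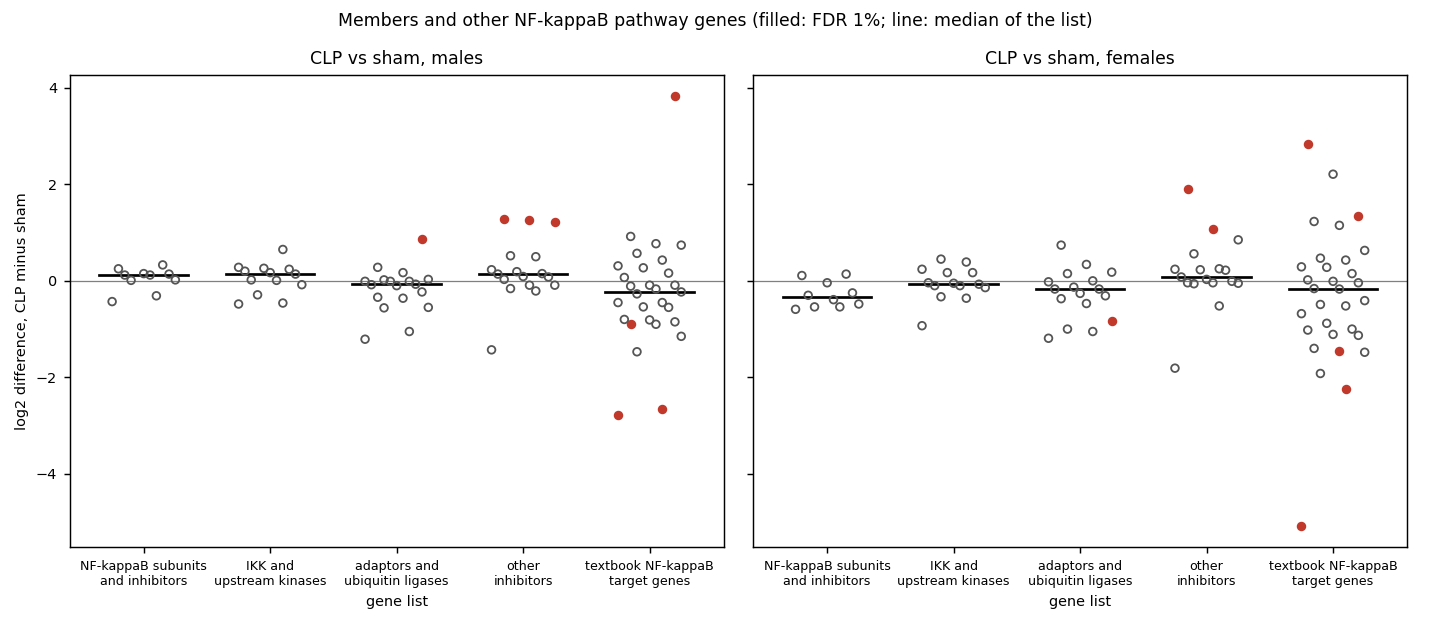
Log2 difference between the CLP and the sham group (vertical axis) of the 10 members and of the genes of 4 pathway lists (horizontal axis), males left and females right. Each circle is 1 gene, filled where it passed an FDR of 1%, and the line is the median of the list. No member is filled, while Csf3 at 3.83 and 2.83 and Cxcl10 at -5.08 in the females stand far from 0.

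The labelled tissue was borne out by the cardiomyocyte markers Myh6 and Tnnt2, which were well above background on all 32 arrays. None of the 8 markers of the list passed in any comparison, and the list medians between CLP and sham were -0.04 and 0.02. Actc1 was lower in CLP without passing, at -0.69 ± 0.20 in the males (adjusted p = 0.031) and -0.72 ± 0.26 in the females (adjusted p = 0.095). With landiolol against sham in the females it stood at -1.06 ± 0.25 (adjusted p = 0.01 after rounding). The T cell marker Cd3e was well above background on 2 of the 32 arrays. Of the 3 of 10 neutrophil markers that could be tested in a sex, all 3 rose in CLP in the males and 2 in the females. Over all genes, 4.18% and 2.14% were higher. S100a8 and S100a9 were well above background on 0 and 3 of the 5 male sham arrays, and on 1 and 2 of the 5 female ones. Both passed the filter only through the groups with CLP, which favours finding a rise. S100a8 was not well above background on any male sham array and was at least 11.3-fold higher in the male CLP group (adjusted p = 2.7e-05). The summed linear signal of the neutrophil list ran from 1047 to 1404 in male sham and 17200 to 61950 in male CLP. In the females the sum ran from 953 to 5291 in sham and 22220 to 40510 in CLP. S100a8 and S100a9 had mean log2 values of only 6.61 and 6.86 in male CLP, and the markers not tested were dim. The sum is therefore mostly the signal of Lcn2, which rose 34.3-fold in the males, and does not measure neutrophil number. Between landiolol and CLP in the males the 3 did not go one way. Lcn2 fell, by a log2 difference of -1.53 ± 0.33 (adjusted p = 0.031), while S100a8 stood at 1.06 ± 0.42 (adjusted p = 0.25) and S100a9 at 1.22 ± 0.46 (adjusted p = 0.22). The sum was 9764 to 28670 in the males and 9745 to 35180 in the females with landiolol. Of 11 macrophage and monocyte markers, 4 rose in CLP in the males (36.4%, against 4.18% of all genes) and 3 in the females (27.3%, against 2.14%). The sum of that list ran from 31930 to 45250 in male sham and 56640 to 78640 in male CLP. In the females the sum was 38170 to 44210 in sham and 52290 to 78060 in CLP. Of 5 fibroblast markers, 3 were lower in CLP in the males (60%, against 4.71% of all genes) and 0 in the females (against 2.07%). The medians of that list were -1.34 and -0.95. Its sum overlapped, from 60230 to 84290 in male sham and 42670 to 82100 in male CLP. The part of any of these cell types in the members' values was not tested.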

How the data were processed

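Total RNA of 32 left ventricles was labelled with Cy3 and hybridised to 1-colour Agilent arrays, which were read by the authors with Agilent Feature Extraction (10.5 per the labels). The deposited scanner files hold 62976 spots per array. The processed intensity was used, from which the scanner software had removed background and spatial trend, and the deposited mean and background intensity served an alternative. The deposited table of log2 values, quantile-normalised and filtered by the authors, was an alternative too. Its column medians lay between 8.20 and 8.39 and its correlation with the values used here was at least 0.988 per array, so its scale is log2 and it is not centred on genes. Whether an offset was added before the logarithm stays unknown.

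Control and outlier spots were dropped, spots were averaged per probe, and log2 intensities were quantile-normalised within each sex. A probe was kept if 80% or more of the arrays in 1 group of that sex had it well above background (25866 in the males, 25395 in the females). limma (3.58.1, R 4.3.3) was fitted to the 3 groups of a sex, with Benjamini-Hochberg adjustment over all probes kept. The FDR was 1% against sham and 5% for landiolol against CLP. The sexes were compared on all 32 arrays normalised together (24769 probes, FDR 5%). Intervals are 95% confidence intervals of limma. Shares over all genes use 1 probe per named gene. The scripts were tested on simulated data. The alternatives were other scalings, background corrections, filters, models, batch terms, SAM with 100 drawn permutations, and leaving out each array.

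All members and probes were named, together with the gene most like each, and of the lists the called genes with the largest rise and fall. The members and lists were chosen with earlier results of these data known. The labels do not number replicates, so numbers follow accession order and pair nothing. No depth exists for arrays, and the number of arrays limits the precision. Where an exon or UTR lies at a probe was not given in the sources used here.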

Additional observations from a re-analysis of the deposited data

Results flagged for a closer look

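Of 96 combinations of a member probe and a group, 6 had an extreme array whose gap to its neighbour exceeded the 95% critical value of Dixon's test for the group's size, where chance alone flags about 1 in 20. All 6 were the lowest array of their group. In female sham replicate 1, Nfkbiz was at 9.10 with the next array at 11.02, and Tnfaip3 was at 10.34 with the next at 11.38. The same array was below its group's median for 9 of the 10 members. In male sham replicate 3, Tnfaip3 was at 10.05 with the next at 10.81, and 8 members were below the median. Nfkb2 was at 10.45 in male CLP replicate 1, with the next at 10.77. The dim Relb probe was at 2.47 in female CLP replicate 2, with the next at 4.44, and at 3.85 in female CLP plus landiolol replicate 1, with the next at 4.69.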

How the results depend on the processing

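The count of members called was 0 in all 8 comparisons, and 0 under every alternative run, the other scalings, normexp, filters, models, slide and row terms, probe choice, FDR levels, the deposited table, SAM and each left-out array. The lowest adjusted p over these was 0.013, for Nfkbie between CLP plus landiolol and sham in the females without female sham replicate 1, where the log2 difference was -0.95. SAM gave an adjusted p of 0.039 for Rel, 0.045 for Relb and 0.05 for Nfkb2 in that comparison. The count of 0 depends on the FDR of 1% used against sham, since several of these values lie under 5%. In the main limma fit the lowest adjusted p of a member was 0.077, for Nfkb1 between CLP and sham in the males. An FDR looser than that would call it. Of 720 member estimates under the alternatives, 17 changed sign, and of 640 with 1 array left out, 62, all of them from main values of at most 0.18 in size. The largest shift was 0.94, for Nfkbia with the row as a term, and the cause was not tested. Over all genes, the count called between landiolol and CLP in the females was 16, and was 5 with 75th percentile scaling, 7 with both sexes normalised together and 28 with normexp. All 10 counted probes were well above background on every array, and the number of arrays limits the precision. No paired analysis was possible because the labels give no replicate numbers that groups share.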
